A study of Homo sapiens with 11 samples.

Results

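Caveolins and cavins are the coat proteins of caveolae, the small flask-shaped pits of the plasma membrane. They were followed here as 7 genes, namely the caveolins CAV1, CAV2 and CAV3 and the cavins PTRF (cavin-1), SDPR (cavin-2), PRKCDBP (cavin-3) and MURC (cavin-4), taken by their symbols from the 25590 genes of the count tables, in all 11 tumours. The tumours had grown from PC-3, a human prostate carcinoma cell line, under the skin of male athymic nude mice (Crl:NU-Foxn1nu) aged 8 weeks, which lack T cells but keep macrophages and other innate cells. After 7 days the mice received A2M*, the methylamine-transformed form of human alpha2-macroglobulin, at 5.6 mg per 20 g body weight (6 tumours), or PBS (5 tumours), intraperitoneally 3 times per week for 31 days by the methods of the study, and both groups carried the same cell line and host. RNA was sequenced with 1 library per tumour, and nothing in the labels places tumours in pairs or batches. Human-assigned reads on genes numbered between 16958533 and 35874381 per tumour. A floor of 3 counts then stood at 0.0836 to 0.177 RPM (reads scaled to the library total; counting error only).

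Caveolin-1 builds the scaffold of the pit and binds cholesterol, caveolin-2 depends on caveolin-1 to leave the Golgi and joins it in the same complexes, and caveolin-3 is the form of muscle. The cavins bind from the cytosol, with cavin-1 needed for the pits to form at all, cavin-2 and cavin-3 as modulators and cavin-4 known from muscle. PC-3 is the standard example of a cell that makes caveolin-1 without cavin-1, so that its caveolin-1 lies outside caveolae. The identity of the tumours was checked on fixed markers. The epithelial and PC-3 genes KRT8, KRT18, KRT19, EPCAM, VIM and CD44 all lay above 1 RPKM (reads scaled to the exon length in kilobases and to the library total), with KRT19 highest at a mean of 394.4 RPKM. Of the luminal prostate genes that PC-3 is known to lack or hardly to express, KLK3 had 0 reads in all 11 tumours and KLK2 had 1 read in 1 tumour, while TMPRSS2 had a mean of 14.6 RPKM.

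CAV2 and CAV1 lie side by side on the plus strand of chromosome 7. In the GENCODE annotation on GRCh37, the build the counts were made on (hg19), the canonical CAV2 transcript spans 116139792 to 116148595 and that of CAV1 spans 116165090 to 116201233, each with 3 exons, and 16494 bases lie between them. CAV3 is on chromosome 3 (8775488 to 8788444, plus strand). The cavins are scattered, with PTRF on chromosome 17 (40554467 to 40575274, minus strand), SDPR on chromosome 2 (192699036 to 192711814, minus strand), PRKCDBP on chromosome 11 (6340176 to 6341731, minus strand) and MURC on chromosome 9 (103340361 to 103350671, plus strand). Exons of SDPR overlap those of CAVIN2-AS1 on the other strand, and exons of PRKCDBP overlap those of a lncRNA on the other strand. The strand setting of the counting is not given in the sources used here, so reads of these 2 genes cannot be told from those of their antisense partners. No exon of another gene overlapped the canonical exons of CAV1, CAV2, CAV3, PTRF or MURC.

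RefSeq promoter windows, the 250 bases before a transcript start on GRCh38.p14, were at hand for 5 of the 7 members (CAV1, CAV2, CAV3, SDPR and MURC). CAV1 had 3 windows and CAV2 had 2, and the one at the outermost start of the gene was taken for both. The windows of CAV3 and SDPR also lie at the outermost start of the gene, and that of MURC does not. The windows of the abundant caveolins, of the trace caveolin and of the most abundant cavin are shown because the genes differ in level by orders of magnitude. They run 5′ to 3′ on the strand of the gene, and capitals mark the dinucleotide CG. CAV1 (plus strand) is at chr7:116524759-116525008, CAV2 (plus strand) at chr7:116499488-116499737, CAV3 (plus strand) at chr3:8733552-8733801 and MURC (plus strand) at chr9:100577829-100578078.
CAV1: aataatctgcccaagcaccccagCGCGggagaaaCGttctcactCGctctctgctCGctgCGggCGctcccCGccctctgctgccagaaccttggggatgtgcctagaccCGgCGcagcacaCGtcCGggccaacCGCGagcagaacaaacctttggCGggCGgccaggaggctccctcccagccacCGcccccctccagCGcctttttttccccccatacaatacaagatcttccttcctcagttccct
CAV2: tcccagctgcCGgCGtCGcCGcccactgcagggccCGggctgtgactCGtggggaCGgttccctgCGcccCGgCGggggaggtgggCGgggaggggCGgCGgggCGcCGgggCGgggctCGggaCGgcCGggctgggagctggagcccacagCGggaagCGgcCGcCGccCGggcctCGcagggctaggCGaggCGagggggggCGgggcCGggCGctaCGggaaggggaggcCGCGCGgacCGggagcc
CAV3: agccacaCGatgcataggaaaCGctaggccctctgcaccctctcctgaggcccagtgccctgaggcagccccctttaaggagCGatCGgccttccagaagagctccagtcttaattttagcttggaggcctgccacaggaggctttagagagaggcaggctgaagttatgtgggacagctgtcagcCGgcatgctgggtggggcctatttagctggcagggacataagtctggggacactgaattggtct
MURC: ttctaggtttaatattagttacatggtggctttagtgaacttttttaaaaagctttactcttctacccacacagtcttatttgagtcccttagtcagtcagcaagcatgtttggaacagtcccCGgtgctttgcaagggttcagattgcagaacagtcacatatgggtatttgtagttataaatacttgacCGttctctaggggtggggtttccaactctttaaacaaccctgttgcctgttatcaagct
The CAV2 window held 35 CG dinucleotides and the CAV1 window 18, against a median of 11 over 35116 windows of the same length. At least as many were found in 5.8% of all windows for CAV2 and in 36.8% for CAV1. The choice of start matters here, since the other windows of CAV1 held 16 (41.0%) and 29 (14.1%) and that of CAV2 held 27 (17.7%). The windows of CAV3, SDPR and MURC held 5, 4 and 2, and 65.7%, 70.7% and 85.3% of all windows held at least as many. The motif GGGCGG, searched on both strands, occurred 6 times in the CAV2 window and 3 times in that of CAV1, where it overlaps the CG dinucleotides, and not in those of CAV3, SDPR and MURC. It was present in 42.6% of all windows. TATAAA, also on both strands, occurred in the MURC window and in 10.7% of all windows. These are counts of letters, and methylation or factor binding was not measured in these tumours.

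CAV1 was the most abundant member in all 11 tumours. In the PBS tumours it had 75.6, 107.8, 87.7, 89.7 and 86.1 RPKM (PC3_tumor_123 to PC3_tumor_127), and in the A2M* tumours between 69.7 and 107.7 RPKM with a median of 90.3. Its mean of 89.0 ± 12.5 RPKM (SD, n = 11) placed it 680th among the 25590 genes, above 97.3% of them, and its 5691 to 12784 reads per tumour make counting error small. The lowest tumour was PC3_tumor_132 (A2M*) and the highest PC3_tumor_124 (PBS), so the extremes lay in different groups and the groups overlapped.

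CAV2 was the other abundant member. The PBS tumours had 34.2, 45.3, 44.1, 42.0 and 34.3 RPKM and the A2M* tumours between 26.9 and 40.8 RPKM with a median of 34.9. The mean was 36.7 ± 6.54 RPKM (SD, n = 11), above 91.9% of all genes, from 1998 to 5018 reads per tumour. PC3_tumor_131 and PC3_tumor_132, both A2M*, were lowest. CAV1 exceeded CAV2 in 11 of 11 tumours, by 1.29 ± 0.200 on the log2 scale of counts per length (SD, n = 11; two-sided exact permutation test by sign flips, p = 0.000977, adjusted over the 6 neighbour pairs 0.00146). This is the smallest p that 11 tumours can give. Within a tumour CAV1 was 1.99 to 3.33 times CAV2 in RPKM.

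CAV3, the muscle caveolin, was at trace level. It had 2, 0, 4, 1 and 1 reads in the PBS tumours and between 0 and 4 in the A2M* tumours with a median of 1.5, and only 2 of 11 tumours passed 3 counts. CAV1 alone made up between 66.5% and 76.9% of the summed caveolin RPKM of a tumour.

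All 4 cavins were far below both caveolins. MURC, the cavin of muscle, came first with 0.519, 0.618, 0.601, 0.682 and 0.612 RPKM in the PBS tumours and between 0.571 and 0.804 RPKM with a median of 0.769 in the A2M* tumours, from 30 to 80 reads per tumour. It accounted for 61.4% to 85.5% of the summed cavin RPKM. The mean of 0.679 RPKM was below the median of 2.73 RPKM over the 22078 genes with any read.

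SDPR had 0.258, 0.0854, 0.143, 0.224 and 0.163 RPKM in the PBS tumours and between 0.0766 and 0.228 RPKM with a median of 0.164 in the A2M* tumours. These were 8 to 25 reads per tumour, and the highest tumour was PC3_tumor_123 (PBS) and the lowest PC3_tumor_112 (A2M*). PTRF had 4, 10, 8, 9 and 8 reads in the PBS tumours and between 3 and 11 with a median of 4 in the A2M* tumours. Its reads passed 3 counts in 9 of 11 tumours, so its RNA was detected in both groups, at a mean of 0.0604 ± 0.0218 RPKM (SD, n = 11), and the highest value was 0.0951 RPKM in PC3_tumor_126 (PBS). PRKCDBP had 1 read in each of PC3_tumor_123, PC3_tumor_127 and PC3_tumor_128 and 0 in the other 8, and a count of 0 allows up to 3 counts in a tumour.

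Per length, CAV1 stood between 828.3 and 2915 times above PTRF within a tumour, with a median of 1413. Taken over all reads and per length, the ratio was 1434. In the 8 tumours with 0 reads of PRKCDBP, against a floor of 3 counts in the same tumour, CAV1 was at least 537.8-fold higher per length. The summed caveolins exceeded the summed cavins between 103.2 and 194.3 times in RPKM. Neighbours in the order of mean RPKM were compared within tumours. The order came from the same tumours, so these tests, that of CAV1 and CAV2 included, are no separate support for it. CAV2 was above MURC by 5.74 ± 0.398, MURC above SDPR by 2.10 ± 0.654 and SDPR above PTRF by 1.34 ± 0.901 on the log2 scale of counts per length, each in 11 of 11 tumours (SD, n = 11; exact permutation test, adjusted p = 0.00146 for each). SDPR and PTRF had 9 and 10 reads in PC3_tumor_124 and 11 and 11 in PC3_tumor_128, so their order there rests on the division by length. Without that division SDPR was above PTRF by 1.18 (exact permutation test, adjusted p = 0.00469). The differences of PTRF from CAV3 (0.64 on the same scale, adjusted p = 0.165 in the exact permutation test) and of CAV3 from PRKCDBP (0.79, adjusted p = 0.0727) did not pass, and both rest on very few reads. Neither call was stable to the setting. With 2 instead of 0.5 added to each count PTRF was 0.098 below CAV3, whereas without division by length both differences passed (1.98 and 1.25 on the log2 scale, adjusted p = 0.00293 and 0.0156 in the exact permutation test). The plot of RPKM by tumour shows the gap between both caveolins and the other 5 members.

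**Figure D1:**
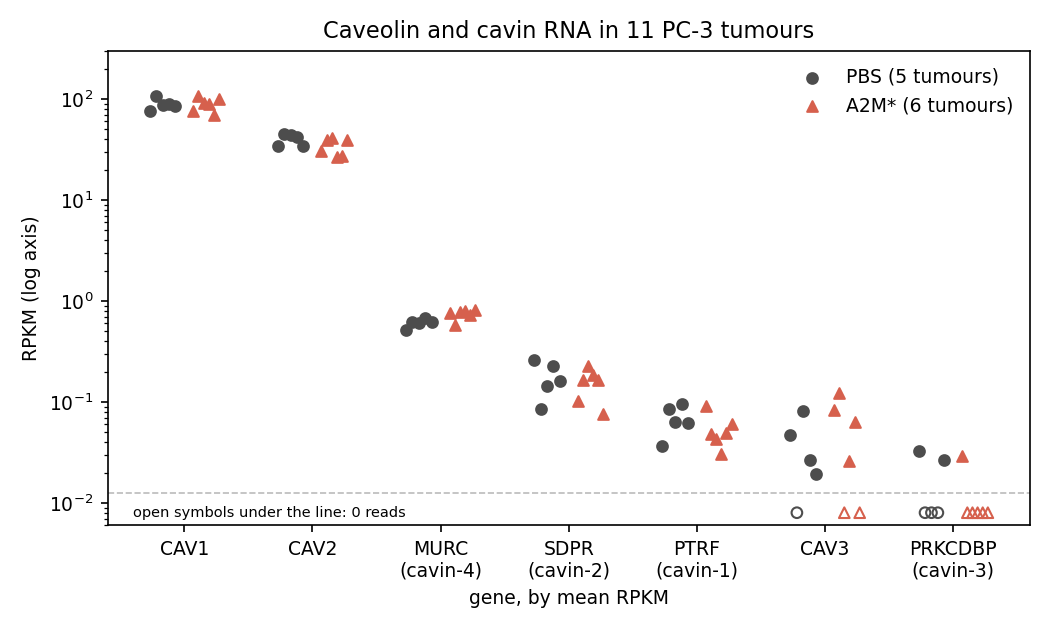
RPKM of each member (log axis) in the 5 PBS tumours (circles) and the 6 A2M* tumours (triangles), ordered by mean RPKM; open symbols under the dashed line are tumours with 0 reads. CAV1 and CAV2 lie between 26.9 and 107.8 RPKM and the 5 other members at or below 0.804 RPKM.

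Caveolae are abundant in endothelium, adipocytes, muscle and fibroblasts, which a tumour takes from the mouse. Markers of these cells were therefore read in the same human-assigned tables, in which a mouse read could appear only if it was assigned to the human. The 7 endothelial markers summed to 3.69 to 5.43 RPKM in the PBS tumours and 3.50 to 5.33 in the A2M* tumours, of which PECAM1 gave a mean of 3.93, while CDH5 and VWF had means of 0.0570 and 0.0923 RPKM. The 5 adipocyte markers summed to 1.69 to 2.47 and 1.80 to 2.57 RPKM in the PBS and A2M* tumours, with ADIPOQ at 0.325 RPKM. The 7 skeletal muscle markers summed to 4.43 to 5.90 and 4.17 to 5.46 RPKM, nearly all of it ACTA1 at 4.54 RPKM, and MYOG and CKM had 0.0404 and 0.0385 RPKM. The 5 macrophage markers summed to 0.945 to 1.56 and 1.05 to 1.88 RPKM. The 7 fibroblast and pericyte markers summed to 56.7 to 114.7 and 56.1 to 157.6 RPKM, most of it COL1A1 at 89.0 RPKM. COL3A1 and ACTA2 had 5.38 and 2.42 RPKM, and COL1A2, PDGFRB, LUM and DCN had 0.530, 0.151, 0.0474 and 0.0146 RPKM. Of these 31 host markers none was at 0 in all tumours. The means of many single host markers were thus of the size of those of SDPR, PTRF and CAV3. FABP4 (0.693 RPKM) and CSF1R (0.629 RPKM) were close to MURC (0.679 RPKM). PECAM1, ACTA1, COL1A1, COL3A1 and ACTA2 were above MURC, and the other host markers were below it. From which cells the few cavin reads came was not tested.

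Beside the coat proteins, a list of 19 genes of caveolar partners was read, all of which passed the filter on low counts. At the neck of the pit, EHD2, the ATPase that caps caveolae, had a mean of 0.550 ± 0.143 RPKM (SD, n = 11), whereas its relatives EHD1 and EHD4 had 46.6 ± 7.40 and 30.6 ± 3.27 RPKM and EHD3 had 4.81 ± 1.05 RPKM. EHD1 and EHD4 serve mainly in endosomal recycling. The F-BAR proteins PACSIN2 and PACSIN3 had 27.6 ± 2.87 and 24.3 ± 2.28 RPKM, and DNM2, the ubiquitous dynamin that cuts vesicles from the membrane, had 58.6 ± 4.17 RPKM. FLNA, the actin crosslinker that binds caveolin-1, was the most abundant of the list with 302.3 ± 37.3 RPKM. Among the kinases that phosphorylate caveolin-1 on tyrosine, SRC had 28.3 ± 2.53, ABL1 17.1 ± 1.03 and FYN 5.91 ± 1.31 RPKM (SD, n = 11 for each). NOS3, the endothelial nitric oxide synthase held inactive by caveolin-1, had 0.0927 RPKM, and ROR1, which can hold caveolin-1 and cavin-1 together, had 1.22 RPKM.

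CAV1 and CAV2 share their stretch of chromosome 7 with active and silent neighbours. TES upstream had 67.96 ± 4.38 RPKM, and downstream MET, the receptor of hepatocyte growth factor, had 27.3 ± 3.80 and CAPZA2, a capping protein of actin filaments, had 35.9 ± 3.76 RPKM (SD, n = 11 for each). ST7 had 4.83 to 6.99 RPKM. WNT2 and TFEC had at most 3 and 1 reads in any tumour. Exons of TES and ST7, and of EHD4, FLNA and NOS3 among the partners, overlap those of other genes, for ST7 also on the same strand. The part of such overlaps in these levels was not tested. The plot of partners and neighbours shows that CAV1 stood above every gene of both lists except FLNA.

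**Figure D2:**
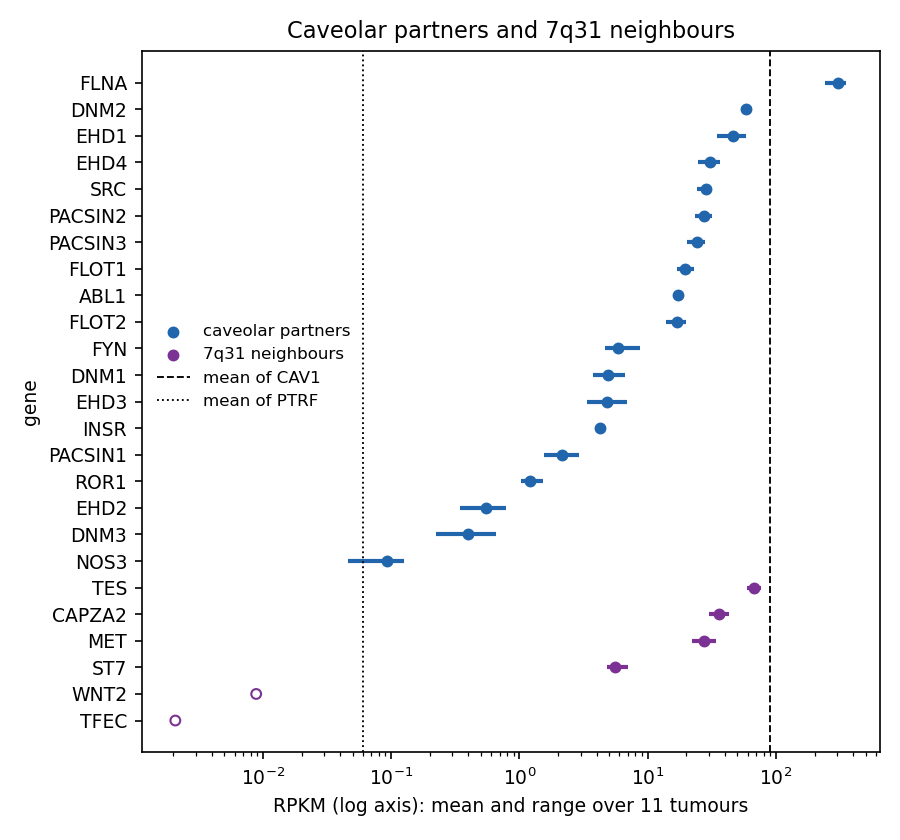
Mean RPKM (points) and range over the 11 tumours (lines) of 19 caveolar partners and 6 neighbours of CAV1 and CAV2 on chromosome 7, on a log axis; open points are genes with 0 reads in at least 1 tumour, drawn without range. The dashed line is the mean of CAV1 (89.0 RPKM) and the dotted line that of PTRF (0.0604 RPKM), and EHD2 lies far below EHD1 and EHD4.

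Whether A2M* changed these genes was asked of the counts. For comparisons between groups, values are CPM (counts relative to the library total, which was scaled with the TMM method of edgeR), and the 16630 genes that passed the filter on low counts were tested together with the quasi-likelihood test of edgeR with Benjamini-Hochberg adjustment. CAV1, CAV2, MURC and SDPR passed the filter, and PTRF, CAV3 and PRKCDBP did not. None of the 4 passed an adjusted p of 0.01, where 0% of all genes tested did. None had an unadjusted p under 0.05, where 7.08% of all genes did (3.55% higher and 3.53% lower in the A2M* tumours). Some other settings put 1 or 2 members under 0.05, as listed at the end. Of the 4 members 3 had a log2 fold change below 0, as had 50.6% of all genes. In none of the 4 were the groups fully separate, which held for 0.71% of all genes. CPM are relative to the human-assigned reads, and in such bulk samples fewer PC-3 cells with an RNA and less of it per cell cannot be told apart. The labels say nothing of separate cages or injections, so that p-values measure the spread between these tumours only.

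CAV1 showed no difference between the groups that passed the test. The PBS tumours had 273.8, 411.9, 333.1, 326.1 and 321.0 CPM and the A2M* tumours between 248.9 and 394.5 CPM with a median of 321.4. The means were 333.2 ± 49.8 CPM (SD, n = 5) and 320.8 ± 54.2 CPM (SD, n = 6). The log2 fold change was -0.05 (SE 0.123, 95% interval -0.32 to 0.21, adjusted p = 0.958 in edgeR). Without PBS tumour PC3_tumor_124 the log2 fold change was 0.033 and without A2M* tumour PC3_tumor_132 it was 0.0082, so that its sign rests on single tumours.

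CAV2 was lower in the A2M* group on average. The PBS tumours had 111.8, 156.5, 151.4, 138.2 and 115.5 CPM and the A2M* tumours between 86.2 and 131.3 CPM with a median of 115.1. Of the A2M* tumours 3 lay below every PBS tumour, and of the PBS tumours 3 lay above every A2M* tumour, with the others overlapping. The means were 134.7 ± 20.4 CPM (SD, n = 5) and 110.9 ± 22.1 CPM (SD, n = 6). The log2 fold change of -0.28 (SE 0.136, 95% interval -0.57 to 0.012) did not pass (unadjusted p = 0.0589, adjusted p = 0.713 in edgeR). Fitted without the filter, CAV2 had an unadjusted p of 0.0472 and an adjusted p of 0.807 in edgeR.

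MURC was higher in the A2M* group on average. It had 1.59, 1.998, 1.93, 2.10 and 1.93 CPM in the PBS tumours and between 1.77 and 2.50 CPM with a median of 2.34 in the A2M* tumours. Of the 6 A2M* tumours 5 lay above every PBS tumour, and the exception was PC3_tumor_129. That tumour had the fewest reads of MURC (30) and the lowest total count of all (16958533). The means were 1.91 ± 0.191 CPM (SD, n = 5) and 2.26 ± 0.261 CPM (SD, n = 6). The log2 fold change of 0.25 (SE 0.124, 95% interval -0.013 to 0.52) did not pass either (unadjusted p = 0.0608, adjusted p = 0.718 in edgeR). With group means removed, MURC had a Pearson r of 0.63 and a Spearman rho of 0.37 with the log2 total count of the library (n = 11, permutation test, p = 0.0547 and 0.297; adjusted p for r = 0.196), and the part of depth in its values was not tested. The spread of MURC between tumours of a group was 11.1% of its mean, and counting error alone gives 12.9%.

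SDPR had 0.829, 0.290, 0.483, 0.725 and 0.540 CPM in the PBS tumours and between 0.250 and 0.721 CPM with a median of 0.528 in the A2M* tumours, with wide overlap. Its log2 fold change was -0.25 with a 95% interval of -0.91 to 0.41 (SE 0.307, adjusted p = 0.914 in edgeR). The 3 members below the filter had 39 reads of PTRF, 8 of CAV3 and 2 of PRKCDBP over the 5 PBS tumours and 32, 10 and 1 over the 6 A2M* tumours, and a difference between the groups was not detectable at this depth. Fitted without the filter, PTRF was at -0.33 on the log2 scale (SE 0.339, adjusted p = 0.864 in edgeR). The plot of CPM by group shows the overlap of the groups for the 4 members tested.

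**Figure D3:**
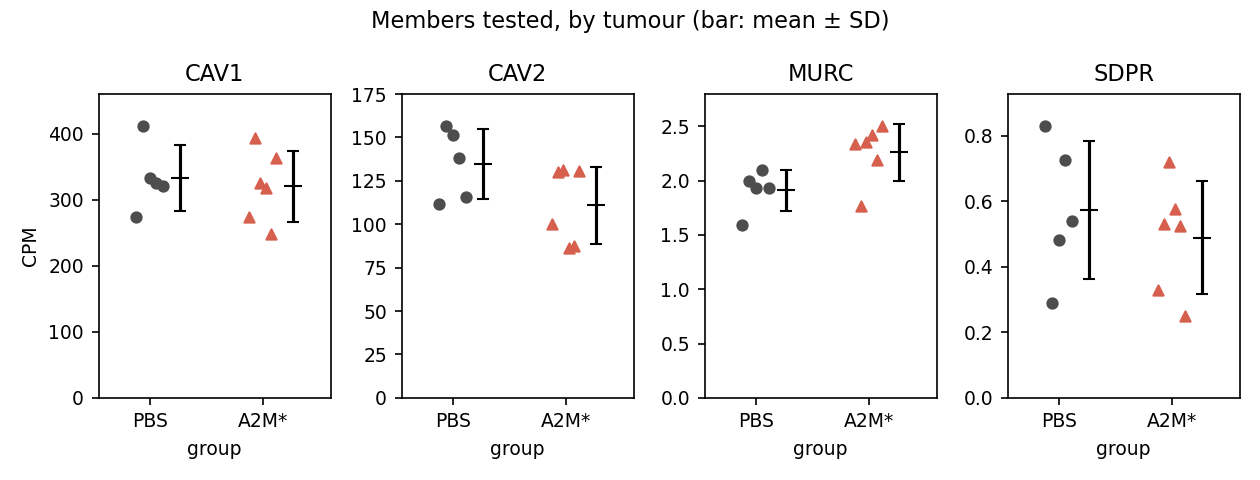
CPM of the 4 members tested in the 5 PBS tumours (circles) and 6 A2M* tumours (triangles), with the mean and SD of each group as a bar; axes start at 0 and differ between genes. The groups overlap for all 4 genes, and 5 of 6 A2M* tumours lie above the PBS tumours for MURC.

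The balance of both caveolins was compared within tumours, which needs no normalization between libraries. CAV2 was 0.452, 0.420, 0.503, 0.469 and 0.398 of CAV1 in RPKM in the PBS tumours. In the A2M* tumours it was 0.404, 0.365, 0.447, 0.300, 0.388 and 0.397 (PC3_tumor_128 to PC3_tumor_132 and PC3_tumor_112), with PC3_tumor_131 lowest. On the log2 scale the mean ratio was -1.16 ± 0.132 (SD, n = 5) in the PBS tumours and -1.39 ± 0.192 (SD, n = 6) in the A2M* tumours, a difference of -0.23. An exact permutation test (two-sided, every labeling of the 11 tumours) gave p = 0.0390, and 0.117 after adjustment over the 3 ratios compared, so that it did not pass. Leaving out A2M* tumour PC3_tumor_130 gave -0.28 with an adjusted p of 0.0476 in the same exact test. Leaving out any other tumour gave an adjusted p between 0.0857 and 0.300 in that test, so that the difference did not pass. The log2 ratio of PTRF to CAV1 differed by -0.28 between the groups (exact permutation test, adjusted p = 0.545), with the few reads of PTRF given above. It was -0.47 without A2M* tumour PC3_tumor_128 and -0.14 without PC3_tumor_131 (exact permutation test, adjusted p = 0.119 and 0.929). For PRKCDBP, at 0 or 1 read in every tumour, such a ratio depends on the count that is added, and no difference between the groups is read from it.

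The levels of CAV1 and CAV2 were compared between tumours. With the group means removed, their log2 CPM over the 11 tumours had a Pearson r of 0.779 (permutation test, p = 0.0121, adjusted over the 6 pairs of members 0.0726) and a Spearman rho of 0.764 (permutation test, p = 0.0117, adjusted 0.0705). Without PC3_tumor_124 and PC3_tumor_132, those farthest from the median of CAV1, r was 0.70 (n = 9, permutation test, p = 0.0513), and within the 6 A2M* tumours it was 0.76 (exact permutation test, p = 0.100). The relation therefore did not pass the threshold after adjustment. Leaving out A2M* tumour PC3_tumor_128 (r = 0.777, adjusted p = 0.0252 by the permutation test) or PC3_tumor_131 (r = 0.883, adjusted p = 0.00294 by the permutation test) made it pass, and leaving out any of the others did not. Both genes come from the same libraries. Their r with the log2 total count of the library was -0.16 and -0.10 (permutation test, adjusted p = 0.803 for both), and the part of depth in the relation was not tested. The other 5 pairs, CAV1 and CAV2 with MURC or SDPR and MURC with SDPR, had r between -0.42 and 0.072 with adjusted p of at least 0.466 in the permutation test, and the low counts of SDPR limit what could be seen. A single tumour, the one with the lowest total count, weighed on those of MURC. Without A2M* tumour PC3_tumor_129 r was 0.72 for CAV1 and MURC (adjusted p = 0.0921 in the permutation test) and 0.53 for CAV2 and MURC (adjusted p = 0.179), beside 0.74 for CAV1 and CAV2 (adjusted p = 0.0921). Whether r differed between the pairs was not tested.

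**Figure D4:**
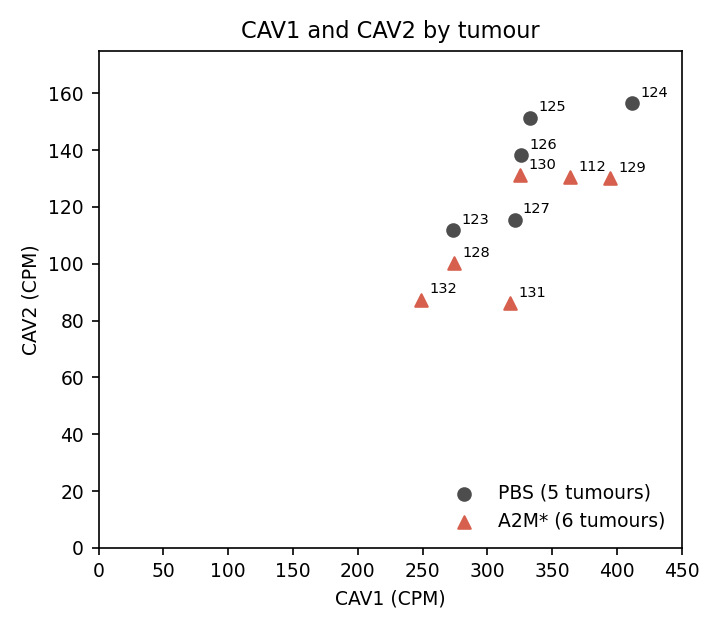
CAV2 against CAV1 in CPM for the 5 PBS tumours (circles) and 6 A2M* tumours (triangles), with tumour numbers; both axes start at 0. Tumours with more CAV1 tend to have more CAV2, and A2M* tumour PC3_tumor_131 has the lowest CAV2 for its CAV1.

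To place this relation, r with CAV1 was computed in the same way for every gene with a mean of at least 1 CPM. CAV2 took place 117 among 14897 genes. Among the 5 genes most like CAV1, members left aside, were OPN3, a light-sensitive opsin found in many tissues (r = 0.949), KLF10, a zinc finger factor induced early by TGF-beta (r = 0.943), ECI2, an isomerase of fatty acid oxidation (r = 0.931), and CDCP1, a membrane protein phosphorylated by SRC kinases (r = 0.912), each over 11 tumours. Among all genes, 9 had r above 0.9 with CAV1, and 5% of all genes had r above 0.592. OPN3 stayed among the 5 in all 11 repeats that left out 1 tumour, KLF10 in 10 and CDCP1 in 2. The neighbours TES, MET and CAPZA2 had r of 0.407, 0.434 and 0.519 with CAV1 and ST7 had -0.257. Of the partners, FYN, FLNA and ABL1 had the highest r with 0.700, 0.640 and 0.631. For MURC, the most abundant cavin, the 5 most similar genes were LRRC28 (r = 0.876), PPP2R2C (0.860), PRND (0.845), HMGN3-AS1 (0.842) and HEG1 (0.836), and LRRC28 stayed among the 5 in 7 of the 11 repeats. Among all genes 0 had r above 0.9 with MURC, and 5% had r above 0.514. The spread of MURC within groups (11.1% of its mean) was below that of counting error alone (12.9%). The part of counting error in these matches was not tested. With group means kept LRRC28 and PPP2R2C were at 0.548 and 0.580, and without A2M* tumour PC3_tumor_129 PPP2R2C, PRND and HMGN3-AS1 were at 0.649, 0.602 and 0.643. For CAV1, OPN3 and KLF10 were at 0.884 each with group means kept, and ECI2 at 0.797 with library size scaling only. These correlations are descriptions without a test.

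Of the 19 caveolar partners none passed an adjusted p of 0.01 or 0.05 between the groups, nor did any of the 4 tested neighbours on chromosome 7, WNT2 and TFEC being too low to test. An unadjusted p under 0.05 was found for 6 of 19 partners (31.6%, beside 7.08% of all genes), 3 higher and 3 lower in the A2M* tumours. The median log2 fold change of the partners was -0.095, beside -0.0021 over all genes. Those 6 were picked out after their values were seen. EHD3 had 13.6 to 18.9 CPM in the PBS tumours and 17.5 to 26.3 CPM in the A2M* tumours, of which 4 of 6 lay above every PBS tumour. The log2 fold change was 0.42 (SE 0.115, adjusted p = 0.599 in edgeR). SRC had 120.2 to 137.9 CPM in the PBS tumours and 100.8 to 125.7 CPM in the A2M* tumours, of which 5 of 6 lay below every PBS tumour. The log2 fold change was -0.24 (SE 0.0668, adjusted p = 0.599 in edgeR). FYN and DNM1 had log2 fold changes of 0.36 and 0.28, and PACSIN3 and FLOT1 of -0.19 each, all with edgeR adjusted p of at least 0.642. COL1A1, far more abundant than the other fibroblast and pericyte markers, had 293.1 to 650.2 CPM in the PBS tumours and 309.9 to 883.9 CPM in the A2M* tumours. Its log2 fold change was 0.37 (unadjusted p = 0.206 in edgeR), and from which cells its reads came was not tested. Of the 20 host markers tested 3 had an unadjusted p under 0.05, beside 7.08% of all genes, and none passed after adjustment. They were COL1A2 (0.73, unadjusted p = 0.0459) on the higher side and VWF (-0.42, unadjusted p = 0.0247) and LEP (-0.68, unadjusted p = 0.0184) on the lower side in edgeR. The groups were fully separate for LEP, as for 0.71% of all genes, on 4 to 23 reads per tumour. The part of host cells in the values of the partners was not tested.

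Of the genes named for their level, FLNA was at -0.11 (SE 0.118; -0.18 to -0.052 with each tumour left out), EHD1 at -0.076 (SE 0.130; -0.15 to -0.0017) and DNM2 at -0.018 (SE 0.0750) on the log2 scale, the last of which turned positive with library size scaling only (0.025). The neighbours TES, CAPZA2 and MET had -0.032, -0.030 and -0.055, the widest 95% interval being that of MET (-0.29 to 0.18), and with library size scaling only TES and CAPZA2 were at 0.012 and 0.013. The plot of log2 fold changes shows that the intervals of all members and neighbours tested include 0, and those of 6 partners do not.

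**Figure D5:**
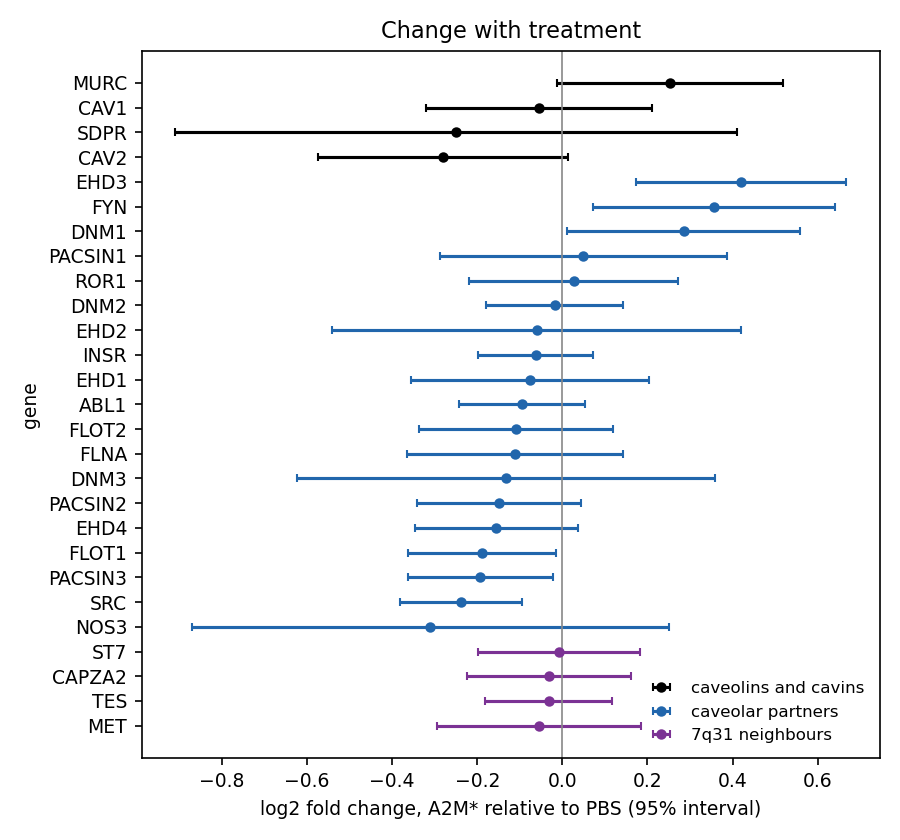
Log2 fold change of the A2M* tumours (n = 6) relative to the PBS tumours (n = 5) from edgeR, with 95% intervals without adjustment for the number of genes, for the 4 members, 19 partners and 4 neighbours tested; the vertical line marks 0. MURC (0.25) and CAV2 (-0.28) lie on opposite sides of 0 with intervals that just reach it.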

How the data were processed

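RNA of 11 PC-3 tumours was analysed, with 1 library per tumour prepared by the authors with an Illumina TruSeq kit. The authors sorted reads by species with xenome, mapped the human reads to hg19 with TopHat v2 and used featureCounts with a RefSeq annotation to count; versions of xenome and featureCounts and the strand setting are not given in the sources used here. Reads alike in human and mouse may be missing from the human set, which was not tested. The deposited counts are raw whole numbers. The deposited RPM divide them by the total per tumour (largest difference on checking 4.99e-07), and the deposited RPKM also by exon length. All 55 pairs of libraries differed by more than sampling noise (chi-square per degree of freedom of at least 8.9).

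Counts were filtered with filterByExpr, scaled with TMM (factors 0.958 to 1.03) and fitted in edgeR 4.0.16 (R 4.3.3; quasi-likelihood F), without covariates, at a Benjamini-Hochberg adjusted p of 0.01. The standard error was the log2 fold change divided by the square root of F. Levels between genes were compared as log2((count + 0.5)/length) by exact sign flips, ratios between groups by exact labelings, and correlations (log2 CPM, prior count 2) by 100000 permutations inside the groups, each two-sided at an adjusted p of 0.05. Named genes were the members, the 3 partners and 3 neighbours with the highest RPKM, and the 5 genes most correlated with the most abundant caveolin and cavin. Members and lists were chosen with earlier results of these data known. Alternatives used DESeq2 1.42.0, limma 3.58.1 and other settings. The steps were tested on simulated data. All 32 symbols of members, partners and neighbours matched a current symbol in RefSeq. A few genes of these lists are not reported here.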

Additional observations from a re-analysis of the deposited data

Results flagged for a closer look

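In 52 groups of values (CPM of the members, of the other named genes and the 3 ratios, in each group of tumours) the highest or lowest tumour stood far from the others in 3, where a rate of 1 in 20 gives 2.6. That rate does not suit PRKCDBP, at 0 or 1 read in every tumour, or genes picked for their correlation, so nothing is concluded from it. PRKCDBP had 0.0299 CPM in A2M* tumour PC3_tumor_128, which is its single read there, and 0 in the other A2M* tumours. PPP2R2C, a regulatory subunit of protein phosphatase 2A that was among the genes most like MURC, had 1.30 CPM in A2M* tumour PC3_tumor_129 and 1.97 to 2.31 in the others. HEG1, a receptor of the endothelial cell junction, also among those most like MURC, had 15.3 CPM in PBS tumour PC3_tumor_123 and 19.7 to 20.8 in the others. MURC itself was lowest within its group in the same 2 tumours (1.77 and 1.59 CPM). PPP2R2C and HEG1 had been picked for their correlation with MURC over these tumours, so the shared tumours are no separate result.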

How the results depend on the processing

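None of the 4 members tested passed an adjusted p of 0.01 under any setting tried, which covered other scalings, filters and tests and each tumour left out. At an unadjusted p under 0.05 there were 0 members in the main test, with DESeq2 and with limma-voom. There was 1 with upper quartile scaling, library size only, no filter, the edgeR exact test or the likelihood ratio test, where 1102 to 1355 of all genes did. With each tumour left out there were 0 to 2, the 2 without PC3_tumor_129, where 1084 of all genes did. The log2 fold changes of CAV2 (-0.34 to -0.22), MURC (0.20 to 0.31) and SDPR (-0.41 to -0.078) kept their sign with each tumour left out. Over all genes 0 passed in the main test (1178 at an unadjusted p under 0.05) and with each tumour left out, 1 with DESeq2, 1 with the edgeR exact test, 1 with the edgeR likelihood ratio test, and 241 had unadjusted p-values no higher than 0.01 by DESeq2 as well as edgeR, of which 2 were partners. The list held 19 partners and the main test 16630 genes. Partners at an unadjusted p under 0.05 numbered 3 to 6 with each tumour left out, where 682 to 1684 of all genes did. The count of 3 came without PBS tumour PC3_tumor_125 or A2M* tumour PC3_tumor_131, where 682 and 766 of all genes did. Small log2 fold changes turned sign: CAV1 ran from -0.12 to 0.033, DNM2 from -0.054 to 0.018, TES from -0.082 to 0.0052, CAPZA2 from -0.076 to 0.031 and MET from -0.11 to 0.027 with each tumour left out, and with library size only DNM2 was 0.025, TES 0.012 and CAPZA2 0.013. The log2 ratio of CAV2 to CAV1 ran from -0.28 (without A2M* tumour PC3_tumor_130, adjusted p = 0.0476 by the exact test) to -0.16. Its adjusted p by the exact test lay between 0.0857 and 0.300 with any other tumour left out. The log2 ratio of PRKCDBP to CAV1 was -0.052, 0.18 with 2 added to each count, 0.17 by medians and from -0.29 to 0.26 with each tumour left out, all of it on 3 reads of PRKCDBP in total. That of PTRF to CAV1 ran from -0.47 to -0.14. In the order of levels 4 of 6 neighbour pairs passed, 4 to 5 with each tumour left out and 6 without division by length. Without PBS tumour PC3_tumor_124 or PC3_tumor_127 or A2M* tumour PC3_tumor_130 or PC3_tumor_112 CAV3 was above PRKCDBP (0.91, adjusted p = 0.0492 by exact sign flips). With 2 added to each count PTRF minus CAV3 was -0.098. Of the correlations between members 0 passed, and 0 to 1 with each tumour left out (CAV1 and CAV2, without PC3_tumor_128 or PC3_tumor_131). The r of CAV1 with MURC was -0.056 with library size only, -0.051 with group means kept and -0.27 to 0.72 with each tumour left out, the highest without PC3_tumor_129. The r of CAV2 with MURC was -0.020, -0.27 and -0.17 to 0.53 under the same settings. What caused such changes was not tested. No paired analysis was possible because the groups share no tumour numbers. Depth limits PTRF, CAV3 and PRKCDBP, which were fitted only without the filter on low counts.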
